A study of Mus musculus with 9 samples.

Results

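A set of 9 genes of antibody sensing, the mouse Fc gamma receptors Fcgr1, Fcgr2b, Fcgr3 and Fcgr4, the adaptor chains Fcer1g and Tyrobp, the kinases Syk and Lyn and the phospholipase Plcg2, were followed through the livers of mice fed a deficient diet. The genes were chosen by symbol from a table of 21936 genes, and all 9 passed the filter on low values that 13817 genes passed. Liver RNA of 9 male WT C57BL/6 mice was sequenced, with 1 mouse per library and 3 mice per group, so the spread within a group is that between animals. The mice were bought at 9 weeks of age, adapted for 1 week and stayed on their diets for 4 weeks. MCS mice ate a methionine- and choline-sufficient diet and MCD mice a diet without these nutrients, each with the vehicle, 0.5% CMC-Na (sodium carboxymethylcellulose), by gavage. The HGPP group had the deficient diet together with Gynostemma pentaphyllum polysaccharides at a high dose of 300 mg/kg in the same vehicle. The deficient diet models steatohepatitis, so the comparison of MCD with MCS addresses the diet and that of HGPP with MCD addresses the polysaccharides.

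Fc receptors bind the constant part of antibodies and let phagocytes and other leukocytes respond to antibody-coated particles. In the mouse, Fcgr1, Fcgr3 and Fcgr4 encode activating receptors for IgG that need the gamma chain, the product of Fcer1g, to signal, whereas Fcgr2b encodes the inhibitory receptor. The gamma chain and the product of Tyrobp carry an immunoreceptor tyrosine-based activation motif (ITAM), which Src family kinases such as Lyn phosphorylate and which then docks the kinase Syk. Syk activates, among others, phospholipase C gamma 2, the product of Plcg2, which releases calcium. Fcgr2b instead carries an inhibitory motif (ITIM) that recruits phosphatases. In the liver, Kupffer cells carry activating receptors, and sinusoidal endothelial cells are known for a high level of the inhibitory receptor.

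The motifs through which the adaptors and the inhibitory receptor signal are shown as coding sequence, because they are what distinguishes an activating adaptor from the inhibitory receptor. They were read from GENCODE vM21 transcripts (GRCm38), and the capitals mark the codons of the motif tyrosines. The Fcer1g motif lies on chr1:171229889-171230072 (minus strand, exons 4 and 5) and covers codons 65 to 79 of 86. The Tyrobp motif lies on chr7:30415670-30417382 (plus strand, exons 4 and 5), codons 92 to 106 of 114, and has the same length of 45 bases with the same spacing of the tyrosine codons. The Fcgr2b motif lies on chr1:170961071-170961088 (minus strand, exon 8), codons 317 to 322 of 340, and holds a single tyrosine codon.
Fcer1g ITAM: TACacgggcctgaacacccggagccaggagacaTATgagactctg
Tyrobp ITAM: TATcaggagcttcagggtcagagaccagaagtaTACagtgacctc
Fcgr2b ITIM: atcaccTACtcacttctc

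Between 11492654 and 18902846 fragments stood behind each library, and the members rested on 13 fragments (Fcgr1 in MCS replicate 3) to 1680 (Tyrobp in MCD replicate 2). Levels are given as FPKM, fragments relative to gene length and library size, which can be compared between genes, and differences as log2 of FPKM + 0.1, a scale that understates the change of low genes. All genes together were not level on this scale: their median difference was 0.40 from MCS to MCD, -0.07 from MCD to HGPP and 0.33 from MCS to HGPP. After median-of-ratios scaling these shifts were 0.02, -0.01 and 0.01. Single livers stood apart in a repeated way among the 9 members. MCD replicate 1 was the lowest MCD liver for 9 of 9 members (45.8% of all genes tested had their lowest MCD value there), MCS replicate 1 was the highest MCS liver for 9, and HGPP replicate 2 was the highest HGPP liver for 9. Results that rest on these livers are given with and without them. The shares of all genes were not counted for MCS replicate 1 and HGPP replicate 2. Whether these counts are particular to the members is thus not known. In bulk liver RNA, more cells that express a gene and more RNA per cell cannot be told apart.

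Leukocyte marker sums were higher in all MCD than in all MCS livers, except those of Kupffer cells and of mast cells and basophils, which overlapped. The part of the markers in the results was not tested. Counts of markers that passed stand beside 22.1% of all genes in MCD against MCS, 19.6% higher and 2.55% lower. The 2 of 7 T and NK cell markers are close to that share. The sums below are led by the most abundant markers of a list. Of the macrophage sum, Spp1 gave 11.2, 15.3 and 18.9 FPKM in MCS livers and 80.8 in HGPP replicate 2. The summed FPKM of 5 pan-leukocyte markers was 8.62 to 22.7 in MCS livers, 38.5 to 139.9 in MCD livers and 28.4 to 54.7 in HGPP livers, and 5 of 5 passed the limma adjusted p in MCD against MCS. The 6 Kupffer cell markers summed to 35.9 to 134.5, 91.8 to 392.9 and 123.1 to 207.3 FPKM (3 of 6 passed), the 8 markers of monocyte-derived macrophages to 20.7 to 27.04, 67.2 to 405.3 and 42.8 to 132.1 (7 of 8 passed), and the 7 neutrophil markers to 7.18 to 9.92, 47.7 to 143.5 and 10.5 to 21.7 (6 of the 6 kept passed). The B cell markers summed to 0.689 to 1.80, 4.05 to 17.8 and 0.989 to 2.03 FPKM (3 of the 4 kept passed), and the 7 T and NK cell markers to 1.13 to 2.63, 3.17 to 7.998 and 1.29 to 2.42 (2 passed). Mast cell and basophil markers, which would accompany the IgE receptor, summed to at most 0.153 FPKM in any liver, with Mcpt4, Tpsb2 and Cma1 at 0 throughout. The 7 sinusoidal endothelial markers summed to 31.1 to 47.3 FPKM in MCS livers, 33.3 to 69.6 in MCD livers and 47.6 to 79.0 in HGPP livers (1 of 7 passed, Stab1, which rose by 1.38 with an adjusted p of 0.00646), and the 7 hepatocyte markers, led by Alb (albumin), to 58813 to 74187, 27619 to 59017 and 42891 to 50901 FPKM (1 of 7 passed, Cps1, which fell by 1.23). The 13 mitochondrially encoded genes summed to 36800 to 62185 FPKM in MCS livers, 52687 to 143200 in MCD livers and 46951 to 55576 in HGPP livers, and 3 of 13 passed in MCD against MCS, all higher.

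On the deficient diet most of the activating side was higher and the inhibitory receptor gene moved least. Of the 9 members, 7 rose in MCD against MCS at a limma adjusted p under 0.05 (19.6% of all genes tested rose, and 22.1% passed in either direction), namely Fcgr1, Fcgr3, Fcer1g, Tyrobp, Syk, Lyn and Plcg2. The adaptor Tyrobp had the largest log2 difference of the 9, 3.54, and the inhibitory receptor Fcgr2b the smallest, 0.63. The median log2 difference of the members was 2.46, against 0.40 over all genes. MCD and MCS livers did not overlap for the same 7 genes (38.1% of all genes had all MCD livers higher). For all 9 members the group means ran in the order MCS, HGPP, MCD. The share of all genes in this order was not counted, and the median differences over all genes ran the same way. Ordered by mean FPKM within a group, neighbouring members overlapped in their livers, except Fcgr4 above Fcgr1 in MCS, and Fcer1g above Fcgr3 and Lyn above Fcgr1 in HGPP.

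**Figure D1:**
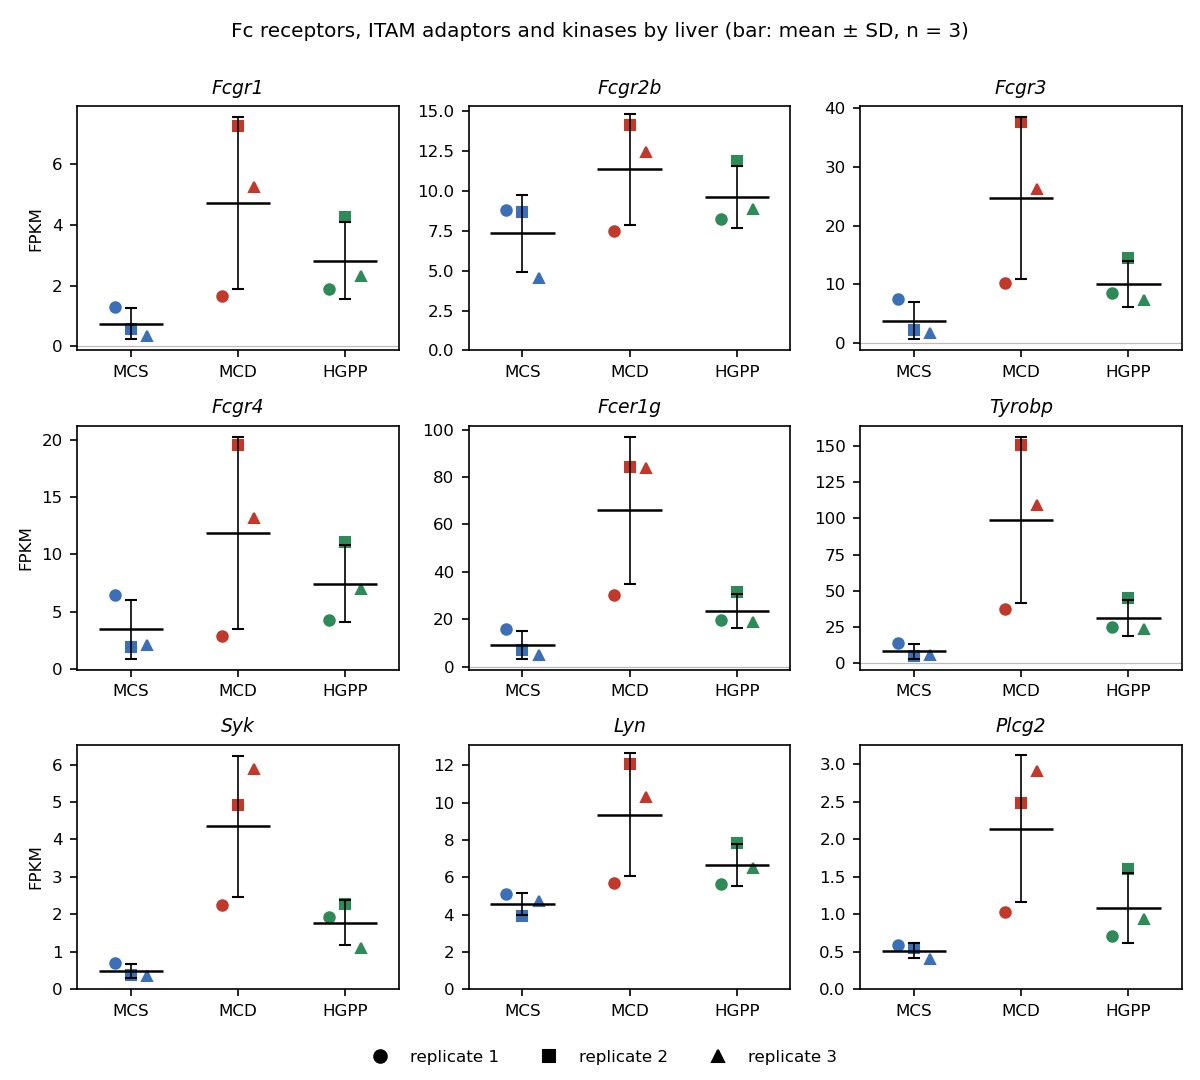
FPKM of each member in each liver (points, shaped by replicate number) with the group mean and SD (bars, n = 3), for MCS, MCD and HGPP mice on a linear axis of its own per gene. For 7 members there is no overlap of MCD and MCS livers, and MCD replicate 1 (red circle) is the lowest MCD liver in all 9 panels.

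Among the activating IgG receptors, Fcgr3, the low-affinity receptor of macrophages, natural killer cells and neutrophils, was the most abundant. It measured 7.53, 2.25 and 1.77 FPKM in the 3 MCS livers, 10.3, 37.6 and 26.3 in the MCD livers, and 8.50, 14.5 and 7.27 in the HGPP livers. Every MCD liver lay above every MCS liver, although MCD replicate 1 was only a little above MCS replicate 1. The log2 difference from MCS to MCD was 2.76 (SE 0.56, limma adjusted p = 0.0089), and it lay between 2.36 and 3.38 with each library left out.

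Fcgr1, the high-affinity receptor for monomeric IgG, was lower in level at 1.31, 0.569 and 0.336 FPKM in MCS livers, 1.65, 7.24 and 5.24 in MCD livers and 1.88, 4.27 and 2.31 in HGPP livers. Its MCD and MCS livers did not overlap, and MCD replicate 1 stood below all 3 HGPP livers. It rose by 2.46 on the log2 scale (SE 0.56, limma adjusted p = 0.0135), a call that was lost without MCS replicate 3, MCD replicate 2 or MCD replicate 3 (adjusted p = 0.0592, 0.0508 and 0.0636). Fcgr4, an activating receptor of monocytes, macrophages and neutrophils, measured 6.44, 1.89 and 2.07 FPKM in MCS livers, 2.91, 19.5 and 13.2 in MCD livers and 4.29, 11.0 and 7.0 in HGPP livers. Here the groups overlapped, since MCD replicate 1 lay below MCS replicate 1, and the log2 difference of 1.60 (SE 0.65) did not pass the limma adjusted p (0.102). Leaving out MCD replicate 1 gave 2.41, which passed (adjusted p = 0.00611).

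The inhibitory receptor gene Fcgr2b was the member that moved least. It measured 8.81, 8.67 and 4.52 FPKM in MCS livers, 7.47, 14.1 and 12.4 in MCD livers and 8.21, 11.8 and 8.85 in HGPP livers. The groups overlapped, and the lowest MCD liver lay below MCS replicates 1 and 2. The log2 difference from MCS to MCD was 0.63 (95% interval -0.09 to 1.35, limma adjusted p = 0.177), which leaves room for a change of more than 1 log2 unit upward. In MCS it ranked 3 of the 9 members by mean FPKM and was the most abundant of the 4 receptors, at 7.33 ± 2.43 (SD, n = 3) against 3.85 ± 3.19 for Fcgr3. In MCD that order was turned, at 11.3 ± 3.45 for Fcgr2b and 24.7 ± 13.7 for Fcgr3.

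Taken per liver, the summed FPKM of Fcgr1, Fcgr3 and Fcgr4 over that of Fcgr2b was 1.74, 0.543 and 0.924 in MCS livers, 1.99, 4.56 and 3.59 in MCD livers and 1.79, 2.51 and 1.87 in HGPP livers. All MCD and all HGPP livers lay above all MCS livers, while MCD replicate 1 lay within the range of HGPP. The mean ratio was 1.07 ± 0.609 in MCS livers, 3.38 ± 1.30 in MCD livers and 2.06 ± 0.397 in HGPP livers (SD, n = 3 each). With single livers left out the means ranged over 0.733 to 1.33, 2.79 to 4.08 and 1.83 to 2.19. Fcgr3 over Fcgr2b alone was 0.855, 0.260 and 0.391 in MCS livers, 1.38, 2.67 and 2.11 in MCD livers and 1.03, 1.22 and 0.821 in HGPP livers, so that every HGPP liver lay below every MCD liver on this ratio.

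Fcgr2b and Fcgr3 are near copies in part of their coding sequence, and reads from that part could have been counted for either gene or dropped. Of the 752 windows of 50 bases in the Fcgr3 coding sequence, 166 (22.1%) also occur in Fcgr2b, and the same 166 make up 17.1% of the 971 windows of Fcgr2b. No such window is shared with Fcgr1 or Fcgr4. The longest identical stretch has 129 bases in exons 3 and 4 of both genes, at chr1:170966674-170968081 in Fcgr2b and chr1:171054167-171057792 in Fcgr3 (GRCm38, minus strand). It is given because it marks where the levels of these genes are uncertain.
Fcgr2b and Fcgr3: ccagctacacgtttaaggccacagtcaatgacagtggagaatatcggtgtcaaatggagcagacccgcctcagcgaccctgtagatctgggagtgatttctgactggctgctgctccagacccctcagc

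The adaptor chains were the most abundant members in all 3 groups. Fcer1g measured 15.7, 6.96 and 4.74 FPKM in MCS livers, 30.1, 84.2 and 83.6 in MCD livers and 19.7, 31.6 and 18.9 in HGPP livers. Every MCD liver lay above every MCS liver, and the log2 difference was 2.88 (SE 0.47, limma adjusted p = 0.0042). Tyrobp, whose product pairs with Trem2 and related receptors of myeloid cells, measured 14.0, 4.99 and 5.41 FPKM in MCS livers, 37.4, 151 and 109 in MCD livers and 24.7, 45.1 and 23.6 in HGPP livers. Its mean rose from 8.15 ± 5.11 to 99.1 ± 57.3 FPKM (SD, n = 3), a log2 difference of 3.54 (SE 0.51, limma adjusted p = 0.0026). The calls of both adaptors held with every single library left out, but not with the RNA integrity number as a covariate (adjusted p = 0.0837 for Fcer1g and 0.0529 for Tyrobp). In MCS Fcer1g was the more abundant of the pair on average and in MCD Tyrobp was: Tyrobp over Fcer1g was 0.896, 0.717 and 1.14 in MCS livers, 1.25, 1.79 and 1.31 in MCD livers and 1.25, 1.43 and 1.25 in HGPP livers. All livers on the deficient diet had more Tyrobp than Fcer1g and lay above all MCS livers on this ratio.

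Of the kinases, Syk stood out by size and Lyn by its base level. Syk measured 0.706, 0.390 and 0.364 FPKM in MCS livers, 2.25, 4.93 and 5.87 in MCD livers and 1.94, 2.27 and 1.10 in HGPP livers. MCD replicate 1 lay just under HGPP replicate 2, and all MCS livers lay below all others. Syk rose by 2.86 on the log2 scale (SE 0.39, limma adjusted p = 0.0022), and the call held with each library left out but not with the RNA integrity number as a covariate (adjusted p = 0.0536). Lyn, a Src family kinase that phosphorylates ITAMs and ITIMs alike, measured 5.08, 3.90 and 4.74 FPKM in MCS livers, 5.68, 12.1 and 10.3 in MCD livers and 5.66, 7.86 and 6.48 in HGPP livers. MCD and MCS livers did not overlap but MCD replicate 1 was close to MCS replicate 1, and the rise of 0.96 (SE 0.29, limma adjusted p = 0.0422) passed in 1 of 6 fits with a library left out, the one without MCD replicate 1 (adjusted p = 0.0051). In the other 5 fits the adjusted p of Lyn was 0.0885 without MCS replicate 1, 0.129 without MCS replicate 2, 0.108 without MCS replicate 3, 0.107 without MCD replicate 2 and 0.132 without MCD replicate 3. Under median-of-ratios scaling the difference of Lyn was 0.54 (adjusted p = 0.202), and the call was also lost under quantile normalization, with a pseudocount of 1, without the filter and with the RNA integrity number as a covariate (adjusted p = 0.168, 0.0512, 0.0614 and 0.127).

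Plcg2, the effector downstream of Syk in myeloid and B cells, was the least abundant member in MCD. It measured 0.591, 0.551 and 0.404 FPKM in MCS livers, 1.03, 2.48 and 2.91 in MCD livers and 0.714, 1.60 and 0.934 in HGPP livers. MCD and MCS livers did not overlap, and Plcg2 rose by 1.76 on the log2 scale (SE 0.39, limma adjusted p = 0.0126). The call was lost without MCS replicate 3 (adjusted p = 0.0567) or MCD replicate 3 (0.0608). The ratio of Syk to Lyn in each liver was 0.139, 0.10 and 0.0768 in MCS livers, 0.396, 0.409 and 0.569 in MCD livers and 0.342, 0.289 and 0.170 in HGPP livers, so the 3 groups did not overlap on it, with HGPP between the others.

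In all, 7 members also passed the thresholds of the study's methods, an absolute log2 difference over 1 with an unadjusted p under 0.05 on the same limma fit (19.3% of all genes were higher by this rule), with Fcgr4 in and Lyn out. With the RNA integrity number as a covariate the limma adjusted p of the 9 members ranged from 0.0529 to 0.473 and 0 passed, while the log2 differences lay between 0.52 and 3.74 (3.62% of all genes passed in that fit). In the paper's list of these numbers no MCD liver exceeded any MCS liver, so RNA integrity and diet cannot be fully told apart in that fit. Without the covariate 8 of the 9 were higher at an unadjusted p under 0.05 (33.4% of all genes). The adjusted p called 4 under quantile normalization (9.1% of all genes), and 4 without MCS replicate 3 (9.03%) or MCD replicate 3 (9.8%). Each time these were Fcgr3, Fcer1g, Tyrobp and Syk.

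**Figure D2:**
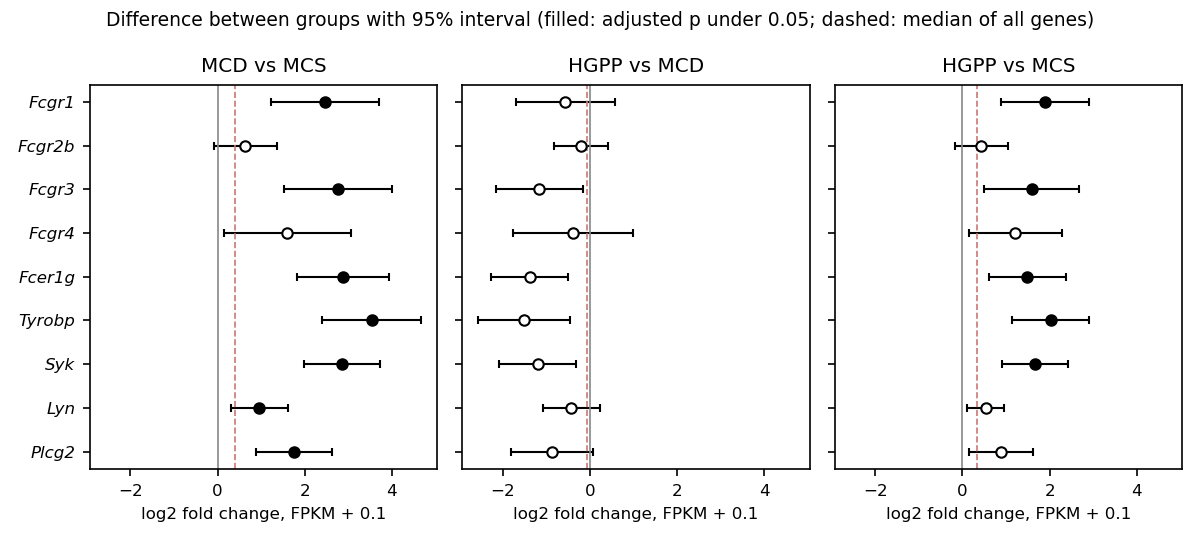
Difference between groups for each member on the log2(FPKM + 0.1) scale (points) with its 95% interval (bars) in the 3 comparisons, filled where the limma adjusted p is under 0.05 and with a dashed line at the median of all genes (0.40, -0.07 and 0.33). There are 7 filled points in MCD vs MCS, 0 in HGPP vs MCD and 5 in HGPP vs MCS, and Fcgr2b lies nearest to 0 in all 3 panels.

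With the polysaccharides, all 9 members had a lower mean than in MCD, but no difference passed the limma adjusted p (0 of 9, against 0.0217% of all genes). The share of all genes with a lower mean was not counted. The adaptors were furthest below MCD, Tyrobp with a log2 difference of -1.51 (SE 0.47, adjusted p = 0.248) and Fcer1g with -1.39 (SE 0.39, adjusted p = 0.226), followed by Syk at -1.20 (SE 0.39) and Fcgr3 at -1.16 (SE 0.44). These 4 genes were past the study's thresholds (5.17% of all genes were lower by this rule), with unadjusted limma p-values of 0.0096, 0.0058, 0.0125 and 0.0264. The same 4 and no others were under an unadjusted p of 0.05 (9.69% of all genes were lower), and voom, the form of limma for counts, called 0 on recovered reads as well. The other 5 differences were -0.87 for Plcg2, -0.57 for Fcgr1, -0.43 for Lyn, -0.39 for Fcgr4 and -0.20 for Fcgr2b. The 95% interval of Fcgr2b was -0.82 to 0.42. The median of the 9 was -0.87, against -0.07 over all genes.

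HGPP and MCD livers overlapped for each of the 9 members (17.2% of all genes did not overlap). In all cases the overlap came from MCD replicate 1, which lay below the highest HGPP liver for 9 of 9 members, while MCD replicates 2 and 3 lay above all HGPP livers for 9 of 9 (24.1% of all genes). For Tyrobp, for example, the 37.4 FPKM of MCD replicate 1 lay under the 45.1 of HGPP replicate 2, and the other MCD livers had more than 100 FPKM. Without MCD replicate 1 limma called 4 members lower, Fcer1g at -1.88 (adjusted p = 0.0104), Tyrobp at -2.10 (0.0123), Fcgr3 at -1.70 (0.0237) and Syk at -1.61 (0.0325), and 7 were past the study's thresholds. In that fit the calls over all genes went from 3 to 443 (3.21%), and the genes past the study's thresholds from 841 to 1359. Without MCD replicate 3 or HGPP replicate 3, 2 members were past these thresholds (530 and 552 over all genes). With the RNA integrity number as a covariate 0 members were (338 over all genes). For Fcgr4 the direction itself hung on 1 liver, since its difference was 0.15 without MCD replicate 2 (adjusted p = 0.915) and -1.20 without MCD replicate 1. Markers of other leukocytes lay lower in HGPP too, past the study's thresholds (5.17% of all genes were lower by this rule). These were 6 of 6 neutrophil, 4 of 4 B cell, 4 of 7 T and NK cell, 4 of 8 macrophage and 4 of 5 pan-leukocyte markers. Of the Kupffer cell markers 0 of 6 and of the sinusoidal endothelial markers 0 of 7 were lower, counts that such short lists can hold at that share. limma called 0 of any list (0.0217% of all genes). The part of these markers in the members' differences was not tested.

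Against the sufficient diet, HGPP livers had higher levels of the adaptors, Syk and Fcgr1, and of Fcgr3 with overlapping livers. Of the 9 members 5 rose in HGPP against MCS (limma adjusted p under 0.05, 16.4% of all genes), namely Tyrobp by 2.02 (adjusted p = 0.0108), Fcgr1 by 1.89 (0.0221), Syk by 1.66 (0.0130), Fcgr3 by 1.59 (0.0487) and Fcer1g by 1.49 (0.0306). Fcgr4 at 1.21 (adjusted p = 0.102), Plcg2 at 0.89 (0.0831), Lyn at 0.53 (0.0790) and Fcgr2b at 0.43 (0.277) did not pass. For Fcgr3, HGPP replicate 3 at 7.27 FPKM lay below MCS replicate 1 at 7.53, and its call held in 4 of 10 other settings. With a library left out, Fcgr3 and Fcer1g each passed in 1 of 6 fits, Fcgr1 in 2, and Syk and Tyrobp in 5. HGPP and MCS livers did not overlap for 6 members, Fcgr1, Fcer1g, Tyrobp, Syk, Lyn and Plcg2 (36.7% of all genes had all HGPP livers higher), and 6 were past the study's thresholds (10.9% of all genes were higher by this rule). Under median-of-ratios scaling 2 members passed, Tyrobp and Syk (9.96% of all genes), and under quantile normalization 1, Tyrobp (8.69%). Without MCS replicate 1 the count was 6 (14.7% of all genes), and without HGPP replicate 1 it was 3 (13.1%). It was 2 without MCS replicate 2 (8.2%), MCS replicate 3 (10.0%) or HGPP replicate 3 (10.5%). Without HGPP replicate 2 it was 0 (7.42%), and the smallest limma adjusted p of the members was 0.0507. Each group enters 2 of the 3 comparisons, so the 3 sets of differences are not independent of each other.

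**Figure D3:**
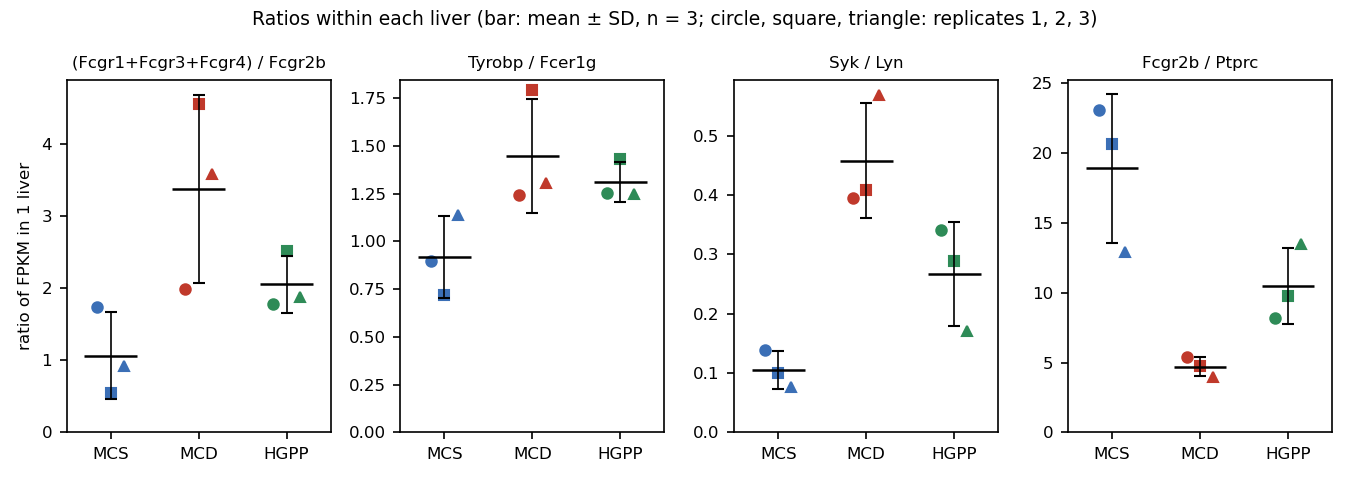
Ratios of FPKM within each liver (points, shaped by replicate number, with group mean and SD as bars, n = 3): activating over inhibitory Fc gamma receptor genes, Tyrobp over Fcer1g, Syk over Lyn, and Fcgr2b over the leukocyte gene Ptprc. All deficient-diet livers lie above all MCS livers in the first 3 panels, and in the last panel the MCD livers lie lowest, between 4.0 and 5.40.

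Relative to Ptprc, which encodes the pan-leukocyte protein CD45 and itself rose by 2.34 in MCD (limma adjusted p = 0.0029), the members differed. For Fcgr1, Fcgr3, Fcgr4, Fcer1g, Tyrobp and Syk the ratio to Ptprc overlapped between the groups in every comparison, though the means were not level in each. Tyrobp over Ptprc was 21.4 ± 13.5, 37.6 ± 12.0 and 32.6 ± 6.97 in the 3 groups in the order MCS, MCD, HGPP, and Fcgr4 over Ptprc was 9.11 ± 6.79, 4.30 ± 2.24 and 8.01 ± 3.33. Fcer1g over Ptprc was 23.7 ± 15.1 in MCS livers, 25.6 ± 3.45 in MCD livers and 24.8 ± 4.69 in HGPP livers (SD, n = 3). For Fcgr2b it was 23.1, 20.7 and 12.9 in MCS livers, 5.40, 4.75 and 4.0 in MCD livers and 8.16, 9.78 and 13.5 in HGPP livers. On this scale MCD livers lay below all MCS and all HGPP livers. Lyn over Ptprc showed the same order, at 12.0 ± 2.39 in MCS livers, 3.83 ± 0.447 in MCD livers and 7.32 ± 2.23 in HGPP livers, with MCD apart from both other groups. Plcg2 over Ptprc was 1.34 ± 0.199 in MCS and 0.838 ± 0.0938 in MCD without overlap. Over Stab2, a sinusoidal endothelial marker, Fcgr2b overlapped between the groups in every comparison. The means were 1.04 ± 0.427, 1.55 ± 0.427 and 1.47 ± 0.293 in the order MCS, MCD, HGPP. Ptprc, at 0.384 ± 0.0346 FPKM in MCS, was the only pan-leukocyte marker used as a denominator. Stab2, with a log2 difference of 0.007 from MCS to MCD, was the only sinusoidal endothelial marker used so. Stab1, the 1 of these 7 markers that passed the limma adjusted p, rose by 1.38. Ratios to the other markers of either list were not taken, and the order may differ with them. All these ratios are descriptions and were not tested.

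The members also differed in how alike their profiles over the 9 livers were. As the root mean square difference of the centred log2 values, Fcgr3 and Fcer1g were the closest pair at 0.209, followed by Fcer1g and Syk at 0.299 and Fcgr1 and Fcgr3 at 0.316, and then by Fcgr2b and Lyn at 0.325. Fcgr2b and Tyrobp were farthest apart at 1.27. Among the 10004 other genes with a mean of at least 1 FPKM, the profile nearest to that of Tyrobp was that of Cd68, a lysosomal glycoprotein of macrophages (0.174), and then Lyz2, a lysozyme (0.209). Fcer1g was nearest to Slc11a1, a metal transporter of phagosomes (0.178), and Pf4, a chemokine (0.204), and Fcgr3 to Lrrc25 (0.187) and Cybb, a subunit of the phagocyte oxidase (0.221). Fcgr1 was nearest to Cd300a (0.256) and C1qb (0.265), and Fcgr4 to Arhgdib (0.221) and C1qc (0.231), where C1qb and C1qc encode chains of the complement component that binds antibody complexes. Fcgr2b had as neighbours Cd55, a complement regulator (0.110), and Sox18, a transcription factor of endothelium (0.134). Syk was nearest to Lpxn (0.224) and Cd37 (0.240), Lyn to Sms (0.0976) and Cndp2 (0.110), and Plcg2 to Casp4 (0.126) and Cnn2 (0.154). All of these distances share the same 9 libraries, and a gene that varies little is near to many others.

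The rest of the pathway was taken from fixed lists. They hold other Fc receptors, ITAM chains with signaling partners, paired receptors, kinases, adaptors, effectors, inhibitory receptors and phosphatases, and 101 of 105 genes were kept. In MCD against MCS 67 rose and 2 fell at the limma adjusted p (68.3%, against 22.1% of all genes in either direction), with a median log2 difference of 1.94. In HGPP against MCD 0 passed, while 90 lay below 0, 58 were lower at an unadjusted p under 0.05 (9.69% of all genes) and 51 were past the study's thresholds, all lower (5.17% of all genes), with a median of -1.04. voom also called 0, the fit over all 9 libraries 3 and the fit without MCD replicate 1 called 41, all lower (3.21% of all genes). In HGPP against MCS 29 rose and 1 fell (18.8% of all genes passed), a count that was 8 and 1 under median-of-ratios scaling (9.96% of all genes). The counts of the single lists that follow stand beside 19.6% of all genes higher and 2.55% lower in MCD against MCS.

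**Figure D4:**
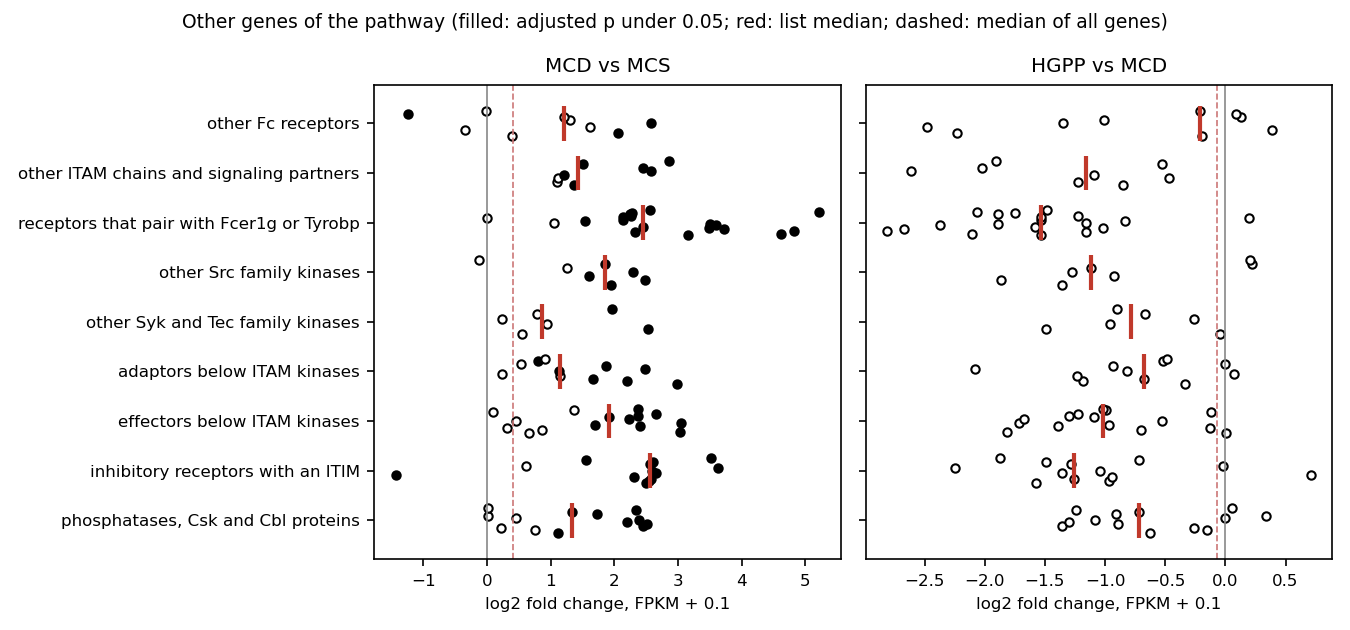
Log2 difference of each gene of the pathway lists (points, filled where the limma adjusted p is under 0.05) in MCD vs MCS and HGPP vs MCD, with the median of each list in red and that of all genes dashed. Receptors that pair with Fcer1g or Tyrobp and inhibitory receptors have the highest list medians in MCD vs MCS, and no point is filled in HGPP vs MCD.

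The receptors that signal through Fcer1g or Tyrobp had 17 of 19 members higher in MCD and 0 lower, with a median of 2.46. Itgb2, the common beta chain of leukocyte integrins, went from 2.06 ± 1.07 to 27.5 ± 17.6 FPKM (log2 difference 3.50, limma adjusted p = 0.00315). Cd300c2, an activating receptor of myeloid cells, rose by 3.15 (adjusted p = 0.00686), and Clec4n, the lectin Dectin-2, by 3.49 (adjusted p = 0.00232). In HGPP these 3 measured 6.08 ± 1.02, 6.34 ± 2.58 and 4.70 ± 2.48 FPKM, and 16 of the 19 lay lower than in MCD past the study's thresholds (5.17% of all genes), with a list median of -1.54. The list of other ITAM chains and signaling partners followed in MCD (6 of 8 higher, 0 lower). Clec1b, a lectin with a single motif of the ITAM kind, rose by 1.51 (limma adjusted p = 0.0171) and Cd79b of the B cell receptor by 2.45 (0.0107). Of the signaling partners, Hcst, an adaptor of NK receptors, rose by 2.85 (0.00904).

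Of 9 Fc receptors kept outside the members, 2 were higher and 1 lower in MCD, a share close to the 19.6% higher over all genes. Pigr, which carries IgA across epithelia and is made by hepatocytes in the mouse, was the most abundant at 246 ± 48.5 FPKM in MCS and fell by 1.23 (limma adjusted p = 0.00782) to 105 ± 25.6. Fcgrt, the neonatal Fc receptor that recycles IgG and albumin, measured 110 ± 18.4 FPKM in MCS livers, 88.5 ± 25.2 in MCD livers and 114 ± 20.9 in HGPP livers (log2 difference -0.34, adjusted p = 0.355). Trim21, the cytosolic antibody receptor, had a log2 difference of -0.01 (adjusted p = 0.991). The high-affinity IgE receptor chains Fcer1a and Ms4a2 did not pass the filter, with at most 0.0530 and 0.0227 FPKM in any liver.

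The kinases beside Syk and Lyn differed among themselves. Of the other Src family kinases 5 of 7 rose in MCD, with Fyn, a member of many tissues, by 1.60 (limma adjusted p = 0.0114), whereas Yes1, which is made by most cells, measured 2.37 ± 0.437 and 2.22 ± 0.73 FPKM (log2 difference -0.12, adjusted p = 0.800). Of the Syk and Tec families 2 of 6 rose, Zap70, the T cell relative of Syk, by 1.97 (0.00632) and Btk by 2.54 (0.00628). Tec, the most abundant of that list, had a log2 difference of 0.23 (adjusted p = 0.627).

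Below the kinases, 7 of 11 adaptors and 9 of 15 effectors rose in MCD and 0 fell. The broadly made adaptor Grb2 had a log2 difference of 0.24 (limma adjusted p = 0.483) and Pik3ap1 one of 0.54 (0.194), while Sh3bp2 rose by 0.81 (0.0396). Among the effectors Vav2, an exchange factor of many tissues, had a difference of 0.10 (0.762) and Plcg1, the sister of Plcg2, one of 0.45 (0.237). The leukocyte GTPase Rac2 rose by 2.38 (0.0118). Plcg1 measured 4.83 ± 0.754 FPKM in MCS and 6.79 ± 2.08 in MCD, against 0.515 ± 0.0983 and 2.14 ± 0.983 for Plcg2.

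Inhibitory receptors and phosphatases were higher as well. Of 13 receptors with an ITIM 11 rose and 1 fell in MCD, with a median of 2.57. Sirpa, the receptor for CD47, rose by 3.52 (limma adjusted p = 0.00188) and Pirb by 2.61 (0.0018), and Ceacam1, an adhesion receptor that hepatocytes make, fell by 1.43 (0.0293) from 32.7 ± 8.13 to 13.4 ± 7.84 FPKM. Of the phosphatases, Csk and Cbl proteins 8 of 13 rose and 0 fell. Ptpn6, the SH2 phosphatase of blood cells, rose by 1.34 (0.00961), while its relative Ptpn11 had a difference of 0.02 (0.955) and Csk, which restrains Src kinases, one of 0.22 (0.448). The remaining ITIM receptor of the list, Pecam1 of endothelium and leukocytes, had a difference of 0.62 (0.159), close to the 0.63 of Fcgr2b.

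There are 4 members within 275.748 kb of chromosome 1, in the order Fcgr2b at chr1:170958617-170976547 (minus strand), Fcgr4 at chr1:171018920-171029761 (plus), Fcgr3 at chr1:171051174-171064935 (minus) and Fcer1g at chr1:171229572-171234365 (minus), all on GRCm38. Their differences from MCS to MCD along that order were 0.63, 1.60, 2.76 and 2.88. Of the 9 other genes from Fcrlb to Fcer1g, all of which were kept, 2 passed the limma adjusted p: Cfap126 rose by 1.15 (0.0365) and Pcp4l1 fell by 1.63 (0.0177). Fcer1g has a neighbour of another kind. Apoa2, an apolipoprotein gene of hepatocytes, ends 3.193 kb away on its low-coordinate side, at 15505 FPKM in MCS and with a log2 difference of -0.36 (adjusted p = 0.534). The other members lie apart on the same build, Fcgr1 at chr3:96282909-96293969 (minus), Lyn at chr4:3678115-3813122 (plus), Tyrobp at chr7:30413760-30417585 (plus), Plcg2 at chr8:117498291-117635142 (plus) and Syk at chr13:52583173-52648792 (plus). In the table the 9 members carry the Ensembl identifiers ENSMUSG00000015947 (Fcgr1), ENSMUSG00000026656 (Fcgr2b), ENSMUSG00000059498 (Fcgr3), ENSMUSG00000059089 (Fcgr4), ENSMUSG00000058715 (Fcer1g), ENSMUSG00000030579 (Tyrobp), ENSMUSG00000021457 (Syk), ENSMUSG00000042228 (Lyn) and ENSMUSG00000034330 (Plcg2).

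**Figure D5:**
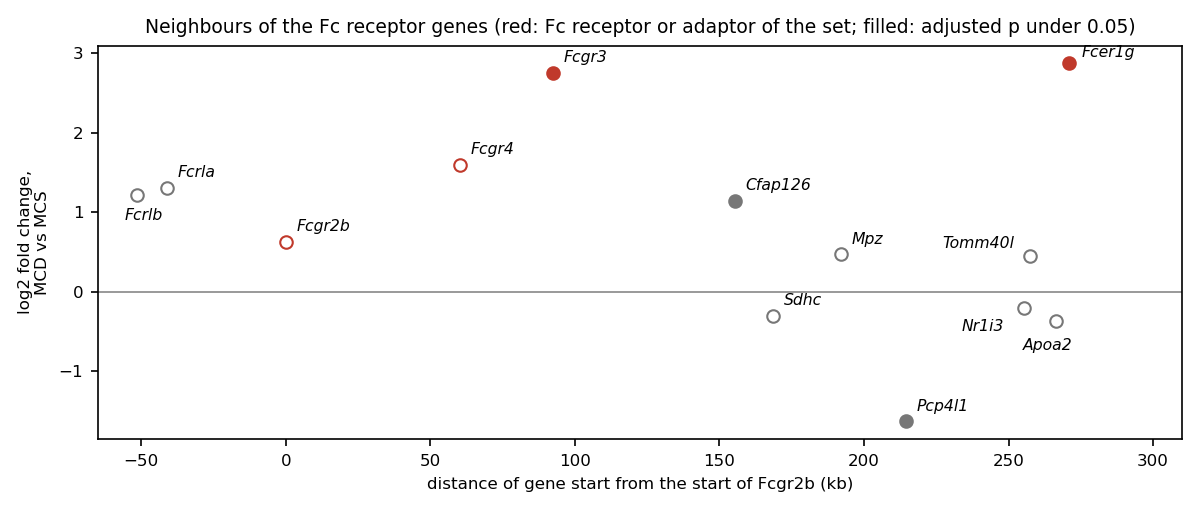
Log2 difference from MCS to MCD of the 13 genes around the chromosome 1 members against the distance of each gene's lowest coordinate from that of Fcgr2b in kb, with members in red and filled points where the limma adjusted p is under 0.05. Fcgr3 and Fcer1g are filled at 2.76 and 2.88, and of the other genes Cfap126 and Pcp4l1 are filled, at 1.15 and -1.63.

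Promoters were compared because several members moved together. RefSeq (GRCm38.p6) gave promoter sequences, 250 bases before to 50 after a start site, for 7 of the 9 members, without Tyrobp and Lyn. The core GAGGAA of the purine-rich motif of ETS factors of myeloid cells was searched on both strands and was found in Fcgr1, Fcgr3, Fcgr4 and the second listed promoter of Syk, 4 of 7 members, against 31.3% of all genes in any of their promoters and 28.3% of all promoters of this length. The longer GAGGAAG, which contains it, was in Fcgr1, Fcgr3 and Fcgr4 (15.4% of all genes), and TTCNNNGAA, the motif of STAT factors, in Fcgr1 alone (9.55% of all genes). Fcgr2b, Fcer1g and Plcg2 held none of these 3 motifs in the window. A match is a description of sequence only. The windows of 60 bases around the matches are printed on the gene's strand with GAGGAA or its reverse complement TTCCTC in capitals, from chr3:96293992-96294051 (minus strand) for Fcgr1, chr1:171059377-171059436 (minus) for Fcgr3, chr1:171018877-171018936 (plus) for Fcgr4 and chr13:52596846-52596905 (plus) for Syk. Counted from the start site, the matches begin at -55, -6, -22 and -9.
Fcgr1: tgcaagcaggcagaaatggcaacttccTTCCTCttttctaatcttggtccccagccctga
Fcgr3: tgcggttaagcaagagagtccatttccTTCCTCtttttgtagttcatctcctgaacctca
Fcgr4: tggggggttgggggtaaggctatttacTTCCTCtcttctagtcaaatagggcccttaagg
Syk: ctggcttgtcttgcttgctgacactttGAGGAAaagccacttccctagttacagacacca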

How the data were processed

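The authors deposited 1 table of FPKM values, which they made from trimmed, aligned and counted reads. The paper names Cutadapt, HTSeq and DESeq, whereas featureCounts 2.0.0, STAR 2.7.7a and fastp 0.20.1 are the tools in the submitters' processing notes. The sources used here do not give the genome build. With gene lengths of GENCODE vM21 (GRCm38), 98.1% of values of up to 1000 reads were whole within 0.02 reads, which gave the depth per library. An FPKM of 0.1 stood for 1.15 reads per kb in the shallowest library, MCD replicate 1. The table held 0 columns of other samples.

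Genes were kept at 0.1 FPKM or more in 3 libraries or more and tested in pairs of groups with limma 3.58.1 (R 4.3.3, eBayes with a trend) on log2(FPKM + 0.1) values. The 13817 p-values of a comparison were adjusted by Benjamini and Hochberg's method. Other steps used Python 3.11.15, pandas 2.3.3 and matplotlib 3.10.9. Simulated data of as many genes, with normal noise, held 100 genes with a 4-fold and 100 with a 2-fold change. Of these, 59, 63 and 75 with a 4-fold and 9, 23 and 25 with a 2-fold change were called. The order is MCD against MCS, HGPP against MCD and HGPP against MCS. No other simulated gene was changed, whereas 22.1% of all genes passed in the real MCD against MCS. The rates therefore need not hold for that comparison.

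The members and lists were chosen with earlier results of these data known. Named genes are the 9 members, the 3 most abundant kept genes of each pathway list, markers, and the 2 genes nearest to each member in profile. Genes outside this rule (Cfap126, Pcp4l1, Apoa2, Stab1, Cps1, Pecam1, Ptprc, Fcer1a, Ms4a2) were named after their values were seen. Clec7a, Trac and Fcn3 are not analysed here, and 1 gene that the rule names is not reported here. The alternatives were other pseudocounts, filters and scalings, one fit over all libraries, a replicate block, each library left out, and a covariate for the RNA integrity number. voom on the recovered reads and the pathway counts under the alternatives were added after the data were seen. The sources used here do not say whether the counting used strand.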

Additional observations from a re-analysis of the deposited data

How the results depend on the processing

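Of 432 member values under the alternatives 373 kept their direction and side of the threshold, 52 no longer passed, 6 newly passed and 1 turned in direction, that of Fcgr4 in HGPP against MCD without MCD replicate 2 (with each library left out in turn it ranged from -1.20 to 0.15). Only values of the 7 members called in MCD against MCS and the 5 called in HGPP against MCS could stop passing. Many of the 373 were thus values that passed neither in the main fit nor in the alternative. The cause of the changes was not tested. Of the 9 members, limma called 4 in MCD against MCS under quantile normalization and 0 with the RNA integrity number as a covariate. Members past the study's thresholds in HGPP against MCD were 0 with that covariate. In HGPP against MCS 2 were called under median-of-ratios scaling, 1 under quantile normalization and 3 in one fit over 9 libraries. With each library left out the calls ranged from 4 to 8, 0 to 4 and 0 to 6 in the 3 comparisons (MCD against MCS, HGPP against MCD, HGPP against MCS), and members past the study's thresholds from 6 to 8, 2 to 7 and 5 to 7. The pair of livers then left in a group is assumed to vary like the other group. Over all genes the calls were 3060, 3 and 2602, and 500, 0 and 2329 with the covariate, 1258, 0 and 1201 under quantile normalization, and 2250, 3 and 1376 under median-of-ratios scaling. In HGPP against MCD the calls over all genes were also 16 in one fit over 9 libraries (1420 in HGPP against MCS), 0 without the filter and 1 by voom. With each library left out they ranged over 1248 to 3629, 0 to 443 and 1025 to 2025. Genes past the study's thresholds were 2940, 841 and 1713, and with a pseudocount of 1 they were 1102, 261 and 578. They were 1805 and 486 in the first 2 comparisons with a filter of 1 FPKM, 1754 and 1005 in MCD and HGPP against MCS under quantile normalization, and 338 in HGPP against MCD with the covariate. With each library left out the count in HGPP against MCD ranged from 530 to 1359.

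In the main fits replicate numbers were not treated as pairs of mice. Deviations of same-numbered livers from their group means correlated at -0.344, -0.306 and -0.261 between MCD and MCS. They correlated at 0.302, 0.0237 and -0.158 between HGPP and MCD, and at -0.305, -0.0188 and 0.0169 between HGPP and MCS. These values cannot decide on pairing, since the deviations of a group sum to 0 for each gene. With the replicate block 6, 0 and 5 members were called, as Lyn was lost in MCD against MCS (adjusted p = 0.0879), and over all genes 1876, 14 and 1585.

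With 3 mice per group and wide differences between livers of a group, a member that was not called is not shown to be unchanged. Depth limits Fcgr1 and Plcg2 most, at 13 and 26 fragments in MCS replicate 3.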
